A study of Mus musculus with 7 samples.

Results

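The genes described here encode the subunits of the NMDA receptor, the glutamate-gated cation channel. They are Grin1, which encodes GluN1, Grin2a, Grin2b, Grin2c and Grin2d, which encode GluN2A to GluN2D, and Grin3a and Grin3b, which encode GluN3A and GluN3B. The members were chosen by symbol alone: 7 of the 41567 genes in the gene table of the unsheared libraries, the same 7 of the 22814 genes in the gene table of the sheared libraries, and 163 of the 437023 exon pieces in the exon table. All 7 were present in every table. RNA-Seq was done on tissue of hippocampal area CA2, collected by laser capture microdissection from naive male Amigo2-GFP C57BL/6 mice aged 6 weeks, in which an Amigo2-driven transgene labels CA2 pyramidal neurons. The study asked how the library kit, the quality of the RNA and the number of PCR cycles alter what low-input libraries report. It comprised 7 libraries.

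In the unsheared libraries a QIAGEN RNA sample (RIN 9) and a PicoPure RNA sample (RIN 7) were each made into a NuGEN and a Clontech SMARTer library, so there was 1 library per combination. The RIN, or RNA integrity number, grades how intact an RNA is. The NuGEN kit removes ribosomal sequences late, after the cDNA has been made, and the Clontech kit follows removal of ribosomal RNA from the RNA itself. The sheared set held 3 NuGEN libraries, all of QIAGEN RNA, amplified for 16, 18 or 20 PCR cycles and each from another mouse by its column name, so cycle number and mouse cannot be told apart. Captured tissue holds every cell of the area, not neurons alone, and in such bulk RNA fewer expressing cells and less RNA per cell cannot be told apart. No group had biological replicates.

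The NMDA receptor is a tetramer that always holds GluN1 subunits, which bind glycine or D-serine, together with GluN2 subunits, which bind glutamate, or GluN3 subunits, which bind glycine. GluN2A and GluN2B are the main GluN2 subunits of forebrain pyramidal neurons, and they set the kinetics of the channel and the proteins that dock at its intracellular tail. GluN2C and GluN2D are typical of the cerebellum and of interneurons and deep structures, and GluN3 subunits lower the calcium permeability and magnesium block of the receptor. In the hippocampus the receptor is known for its part in long-term potentiation, which is weak at the proximal synapses of CA2 neurons.

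The sequences that the results below refer to most are shown first. Grin1 lies on chromosome 2 on the minus strand, and it has a pair of cassette exons, coding exons that a transcript may include or skip. The first, N1, adds a segment to the extracellular amino-terminal part of GluN1, at chr2:25311343-25311405. The second, C1, adds a segment to the intracellular tail that carries a signal for retention in the endoplasmic reticulum, at chr2:25294438-25294548. They are printed 5′ to 3′ on the coding strand from the GRCm38 transcripts of GENCODE, with the cassette in capitals and 20 bases of each neighbouring exon in lower case, because their levels beside those of their neighbours are given below.
Grin1 N1 cassette: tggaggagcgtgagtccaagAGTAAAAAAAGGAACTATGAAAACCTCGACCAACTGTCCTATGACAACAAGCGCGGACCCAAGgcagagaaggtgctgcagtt
Grin1 C1 cassette: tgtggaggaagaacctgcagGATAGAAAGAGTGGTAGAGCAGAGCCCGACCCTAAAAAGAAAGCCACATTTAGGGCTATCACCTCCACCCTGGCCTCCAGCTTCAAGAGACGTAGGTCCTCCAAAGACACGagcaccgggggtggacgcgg

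A pair of coding exon pieces of Grin1 is shown because they had the highest and the lowest difference of NuGEN over Clontech among those of 60 to 300 bases whose coordinates could be matched to the annotation. The highest was exon 2a (chr2:25316755-25316889) and the lowest exon 10 (chr2:25297596-25297714). Some pieces with no matched coordinates differed more, such as 1a, at 2.99 on the log2 scale, and 6a, at -2.19. The sequences run 5′ to 3′ on the coding strand of GRCm38, and capitals mark G and C.
Grin1 exon 2a: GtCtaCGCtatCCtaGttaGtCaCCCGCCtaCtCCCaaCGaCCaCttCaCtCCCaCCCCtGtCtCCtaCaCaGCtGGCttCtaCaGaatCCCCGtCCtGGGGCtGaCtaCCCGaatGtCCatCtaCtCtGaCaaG
Grin1 exon 10: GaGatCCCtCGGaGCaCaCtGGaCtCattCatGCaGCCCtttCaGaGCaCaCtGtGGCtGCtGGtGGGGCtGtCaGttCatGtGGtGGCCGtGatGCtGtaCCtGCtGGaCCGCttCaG

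The values are normalized counts, read counts divided by 1 size factor per library, and the reads behind them could be recovered exactly. Reads assigned to genes numbered 4548002 to 10417443 in the unsheared libraries, the Clontech libraries being the deeper ones, and 33239387 to 39256039 in the sheared libraries. The tables were normalized separately, so counts were compared only within a table. CA2 markers were present in all libraries: Rgs14 ranged from 3465 to 4649 normalized counts and Amigo2 from 2237 to 3065 in the unsheared libraries. The summed normalized counts of 8 CA1 markers were lower, at 647 to 1339, against 8773 to 9509 for the 5 CA2 markers listed in that table.

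Grin1, the gene of the obligatory subunit, had 7258 normalized counts in the NuGEN QIAGEN library, 7739 in NuGEN PicoPure, 5748 in Clontech QIAGEN and 5662 in Clontech PicoPure. In the sheared libraries it had 26604, 24916 and 25142 normalized counts at 16, 18 and 20 cycles. Among the GluN2 genes, Grin2b had 10996 normalized counts in NuGEN QIAGEN, 17550 in NuGEN PicoPure, 16611 in Clontech QIAGEN and 21258 in Clontech PicoPure. Grin2a had 5744, 7798, 6216 and 9272 normalized counts in the unsheared libraries in the same order. The sheared libraries gave 14793, 13383 and 12661 for Grin2a and 20744, 20122 and 17959 for Grin2b. The 3 sheared values of each gene lay close together, with coefficients of variation of 3.58% for Grin1, 7.97% for Grin2a and 7.45% for Grin2b.

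The other subunit genes had few reads. Grin2c had 93.3 and 46.3 normalized counts in the NuGEN libraries of QIAGEN and PicoPure RNA and 47.6 and 62.1 in those of Clontech, which came from 33 to 100 reads. Grin2d had 76.6, 88.5, 15.4 and 57.1 normalized counts in that order, from 24 to 92 reads. Grin3a had 26.7, 70.2, 58.5 and 114, from 16 to 183 reads. In the sheared libraries Grin2c had 171, 377 and 275 normalized counts, Grin2d 235, 354 and 242, and Grin3a 247, 289 and 190.

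Grin3b was at the limit of detection. It had 4 reads in NuGEN QIAGEN, 5 in NuGEN PicoPure, 0 in Clontech QIAGEN and 1 in Clontech PicoPure, and 0, 1 and 0 reads at 16, 18 and 20 cycles, where a count of 0 allows up to 3 reads. It shares 1059 exon bases with Tmem259 on the opposite strand, which had 370 to 626 normalized counts in the unsheared libraries. Whether counting used the strand is not given in the sources used here, so the few Grin3b reads cannot be assigned firmly to either gene. Grin3b did not pass the minimum of 10 normalized counts in at least 2 libraries and entered no test.

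**Figure D1:**
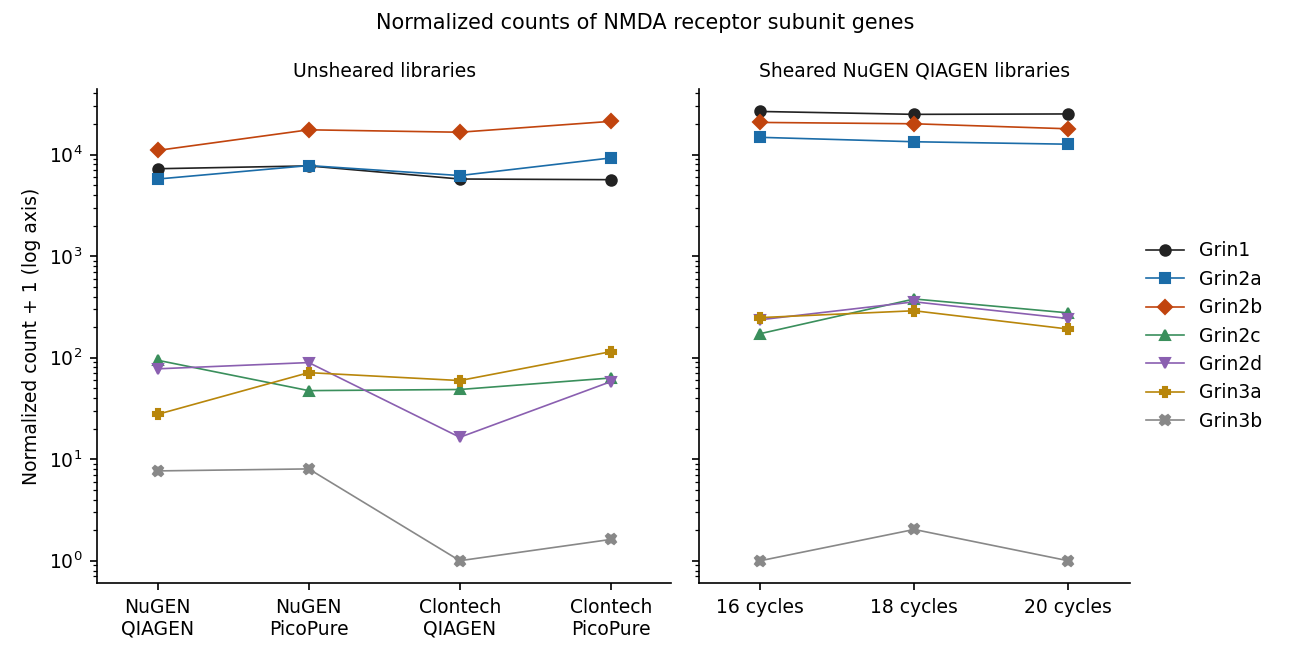
Normalized count plus 1 on a log axis for the 7 NMDA receptor subunit genes in the 4 unsheared libraries (left) and the 3 sheared libraries (right), which were normalized separately. Each point is 1 library and lines only join the points of a gene; Grin1, Grin2a and Grin2b lie between 5662 and 26604 normalized counts, Grin2c, Grin2d and Grin3a between 15.4 and 377, and Grin3b at 7.02 or less.

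Levels of different genes were compared per length. With the length of all merged exons, the level of Grin1 in RPKM (reads per kilobase of exon, scaled to the total reads of the library) was 104 and 114 in NuGEN and 94.1 and 92.8 in Clontech, for QIAGEN and PicoPure RNA. That of Grin2b was 61.5, 101, 106 and 136 and that of Grin2a was 44.5, 62.0, 55.0 and 82.2. On this scale Grin1 was above Grin2b in both NuGEN libraries and below it in both Clontech libraries, and Grin2a was the lowest of the 3 in all 4. The length used matters here: Grin1 has 9700 bases of merged exons, retained introns included, but its longest transcript has 4276, whereas Grin2b has 24842 merged and 24060 in the longest transcript. With the longest transcript Grin1 was above Grin2b in all 4 libraries, at 236 and 258 RPKM in NuGEN and 213 and 211 in Clontech against 63.5 and 104 and 110 and 141. With the longest coding sequence Grin1, at 351, 383, 317 and 313 RPKM in the same order, was above Grin2b, at 344, 562, 593 and 760, in NuGEN QIAGEN alone. Of the low genes Grin2c had the highest level per merged length in NuGEN QIAGEN (2.58 RPKM) and in both Clontech libraries (up to 1.96), and Grin2d in NuGEN PicoPure (1.89), while Grin3a ran from 0.302 to 1.47. This order too depended on the length. With the longest coding sequence Grin3a was the highest of them in both Clontech libraries, at 2.73 in QIAGEN and 5.31 in PicoPure against 2.03 and 2.66 for Grin2c.

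A scale that does not use the ends of transcripts gave 1 order throughout. Over inner exon pieces that are wholly coding, Grin1 had 124 and 189 normalized counts per 100 bases in NuGEN and 273 and 330 in Clontech, for QIAGEN and PicoPure RNA. Grin2b had 57.5, 95.04, 168 and 217 normalized counts per 100 bases in that order. Grin2a had 44.3, 58.9, 97.4 and 133. Grin1 was thus above Grin2b and Grin2b above Grin2a in all 4 unsheared libraries. This holds over 10 pieces of Grin1 (1300 bases), 10 of Grin2b (2187 bases) and 9 of Grin2a (1588 bases). A read counts in each piece it spans, which raises the level of short pieces, and those of Grin1 were the shortest on average. The part of piece length in this order was not tested. The Grin1 pieces included the C1 cassette and left out exons 5, 6, 7 and 14, which could not be matched to the annotation. This scale was chosen after the data had been seen.

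In the sheared libraries the mean level per merged length was 76.0 ± 2.63 (SD, n = 3) RPKM for Grin1, 22.8 ± 1.67 for Grin2b and 21.9 ± 1.71 for Grin2a. Grin1 stood apart, while the means of Grin2a and Grin2b differed by less than their spread over the libraries. Within each library Grin2b was the higher on this scale. It had 24.06, 23.38 and 20.88 RPKM at 16, 18 and 20 cycles, against 23.77, 21.54 and 20.39 for Grin2a. The lowest 4 were Grin2c at 1.57, Grin2d at 1.20, Grin3a at 0.569 and Grin3b, which had at most 1 read. The ranges of Grin2c (0.981 to 2.16) and Grin2d (1.02 to 1.53) overlapped, and the highest level of Grin3a was 0.679. With the longest coding sequence the means were 2.13 for Grin2c, 2.01 for Grin2d and 2.05 for Grin3a, so the place of Grin3a depended on the length used. The study's methods name more than 1 GENCODE release and do not say which was behind the sheared table, and how much of the long last exons of Grin2a and Grin2b it counted is therefore unknown.

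The ratio of Grin2a to Grin2b is of interest because GluN2A and GluN2B give the receptor different kinetics. Per merged length it was 0.724 in NuGEN QIAGEN (95% counting interval 0.694 to 0.754), 0.616 in NuGEN PicoPure (0.596 to 0.635), 0.518 in Clontech QIAGEN (0.506 to 0.531) and 0.604 in Clontech PicoPure (0.593 to 0.616). It was below 1 in each unsheared library. The libraries differed by more than counting error, except for NuGEN PicoPure and Clontech PicoPure, whose intervals overlapped. Over inner coding pieces it was 0.771, 0.620, 0.581 and 0.615 in the same order. In the sheared libraries the ratio per merged length was 0.988, 0.921 and 0.977 at 16, 18 and 20 cycles. With the length of the longest transcript it became 1.17, 1.09 and 1.16 there, so that which of both genes was the higher in the sheared libraries depended on the length used.

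**Figure D2:**
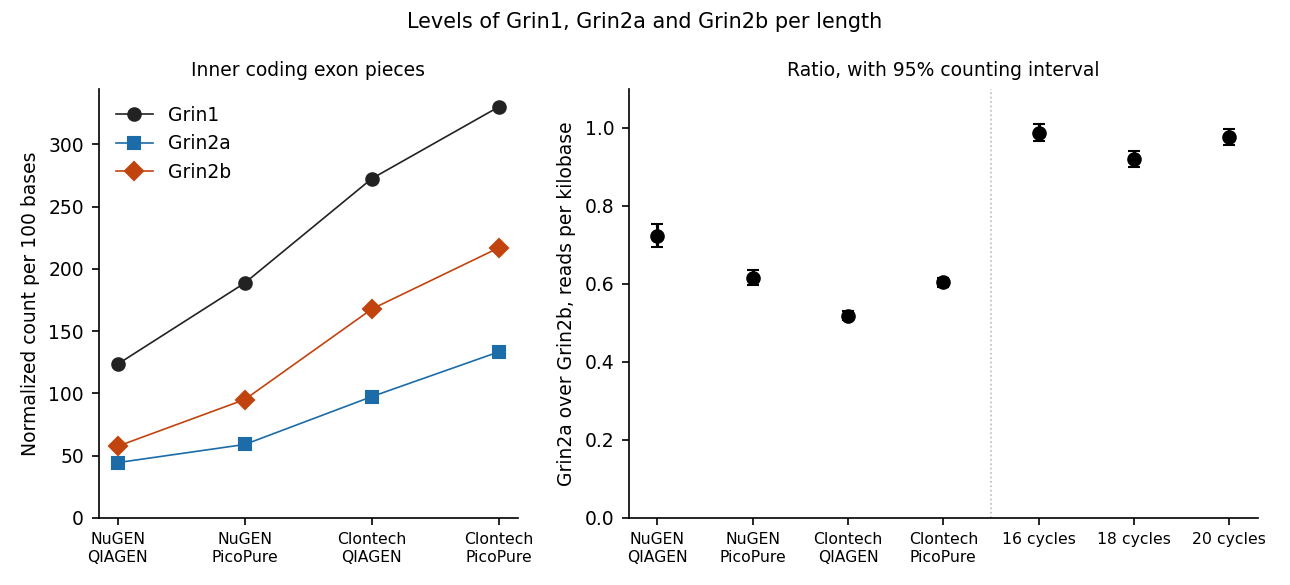
Left: normalized counts per 100 bases of inner coding exon pieces in each unsheared library, with Grin1 at 124 to 330, Grin2b at 57.5 to 217 and Grin2a at 44.3 to 133, in the same order in all 4. Right: the ratio of Grin2a to Grin2b in reads per kilobase of merged exons in each of the 7 libraries with its 95% counting interval; it runs from 0.518 to 0.724 in the unsheared and from 0.921 to 0.988 in the sheared libraries, which were normalized separately (dotted line).

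The first comparison was that of the kits. Grin1 was higher in the NuGEN libraries: both NuGEN values, 7258 and 7739, lay above both Clontech values, 5748 and 5662. The difference was fitted with limma, a linear model in which the spread of a gene is moderated by that of other genes, on log2(normalized count + 1) with kit and RNA sample as terms, and p-values were adjusted over all genes tested and called under 0.05. For Grin1 it was 0.39 on the log2 scale (SE 0.10, 1.31-fold, adjusted p = 0.0040). Grin2b was lower in the NuGEN libraries by 0.44 on the log2 scale (a difference of -0.44, SE 0.092, 0.739-fold, adjusted p = 4.4e-04). Its groups overlapped, since the NuGEN PicoPure value of 17550 lay above the Clontech QIAGEN value of 16611, but within each RNA sample NuGEN was the lower, by -0.60 in QIAGEN and -0.28 in PicoPure. Of the 6 subunit genes tested, 2 passed, 1 in each direction, where 21.3% of the 13048 genes tested passed (10.8% higher and 10.5% lower in NuGEN).

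The other GluN2 and GluN3 genes did not pass between kits. Grin2a differed by -0.18 on the log2 scale (95% interval -0.39 to 0.02, adjusted p = 0.21 in limma) and was the lower in NuGEN in both RNA samples. Grin2d differed by 1.43 (0.03 to 2.83, adjusted p = 0.14), with 2.24 in QIAGEN and 0.62 in PicoPure RNA. Grin3a differed by -0.90 (-2.16 to 0.37) and Grin2c by 0.27 (-1.01 to 1.55). The intervals of Grin2c, Grin2d and Grin3a are wide, so differences well over those of Grin1 and Grin2b were not detectable for them at this depth.

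Both kit calls were lost, at unchanged differences, when kit was the only term of the fit (adjusted p = 0.17 for Grin1 and 0.31 for Grin2b), and also when any 1 library was left out. The fits with 1 library left out also had kit as their only term, so kit and RNA sample were not balanced in them. In these the difference of Grin2b was -0.10 without NuGEN QIAGEN, -0.77 without NuGEN PicoPure, -0.26 without Clontech PicoPure and -0.61 without Clontech QIAGEN. With both terms the difference of Grin1 became 1.99 when its highest exon piece alone stood for the gene.

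The exon table showed where in each gene the kits differed. An exon piece is a stretch of an exon that no annotated exon boundary divides, named here by exon number from the 5′ end and a letter, and a read that spans several pieces is counted in each. Of the 163 pieces of the subunit genes, 84 passed the minimum of 10 normalized counts in at least 2 libraries. Between kits 44 of them passed, 19 higher and 25 lower in NuGEN, where 22.2% of the 131223 pieces tested passed (13.3% higher and 8.95% lower). All 44 lay in Grin1, Grin2a and Grin2b. Pieces of a gene share reads and are not independent.

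The kit difference of Grin1 changed sign along the gene. In its first 3 exons 7 of 10 pieces passed as higher in NuGEN and 0 as lower. In the inner exons 0 of 17 passed as higher and 13 as lower, and in the last exon 3 of 5 as higher and 0 as lower. By value 9 of 10, 1 of 17 and 5 of 5 pieces were higher in NuGEN. The median differences were 1.77, -1.34 and 1.64 on the log2 scale. Exon 2a, printed above, had 1705 and 2145 normalized counts in the NuGEN libraries and 451 and 489 in the Clontech libraries, for QIAGEN and PicoPure RNA, a difference of 2.02 (SE 0.22). Exon 10 had 59.8 and 223 in NuGEN and 289 and 510 in Clontech, a difference of -1.72 (SE 0.32). In both pieces the kits did not overlap. The division into first 3, inner and last exons was made after the data had been seen. The shares of pieces that passed in each of these regions over all genes were not computed. Over its most expressed genes, the study reports more coverage at both gene ends in NuGEN than in Clontech libraries, for higher and lower expressing transcripts alike. The pattern is therefore not particular to the subunit genes. The study ascribes a slight 5′ bias of the unsheared NuGEN libraries to the omitted shearing of cDNA, and reports that shearing corrects it. The exon table holds no sheared library, so this was not tested for the subunit genes.

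As a share of all exon counts of Grin1, the first 3 exons took 53.6% in NuGEN QIAGEN (Wilson 95% interval 52.6 to 54.7), 49.0% in NuGEN PicoPure (48.1 to 49.9), 17.9% in Clontech QIAGEN (17.3 to 18.5) and 16.7% in Clontech PicoPure (16.1 to 17.2). The inner exons took 20.7%, 26.8%, 69.9% and 75.2% in the same order, and the last exon 25.7%, 24.2%, 12.2% and 8.09%. The intervals take each exon count as independent and are too narrow, since Grin1 had 1.89 to 2.10 exon counts per gene read. Exons 5 and 6 together held much of the Clontech counts, with 16.2% and 13.8% of them in QIAGEN and 15.6% and 14.8% in PicoPure RNA, against 4.09% and 2.68% in NuGEN QIAGEN. The gain of Grin1 in NuGEN by gene count thus joined higher counts at both ends with lower counts between them. Grin1os, a gene on the opposite strand that shares 1307 exon bases with Grin1, had 20.0, 22.5, 23.1 and 54.6 normalized counts in the 4 libraries; its part in these counts was not tested.

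Grin2a followed a like course at its 5′ end. In its first 3 exons 4 of 8 pieces passed as higher in NuGEN and 0 as lower, and 6 of 8 were higher by value. In its inner exons 5 of 9 passed as lower and 0 as higher, and 0 were higher by value. The median of these inner pieces was -1.18 on the log2 scale. Exon 12 had 62.9 and 20.7 normalized counts in the NuGEN libraries against 195 and 142 in the Clontech libraries, a difference of -2.17 (SE 0.48). Its first 3 exons held 32.4% and 38.9% of exon counts in NuGEN and 18.3% and 16.4% in Clontech, for QIAGEN and PicoPure RNA. The last exon, which holds the end of the coding sequence and a long untranslated region, took 54.8% and 47.5% in NuGEN and 58.2% and 59.7% in Clontech. Its main piece, 13c, differed by -0.60 (SE 0.23, adjusted p = 0.069 in the limma fit over all pieces). In a fit in which each gene was represented by its highest piece, the same difference passed (adjusted p = 0.0051).

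In Grin2b the first exons held few counts in Clontech. Pieces 3b and 3c had 538 and 601 normalized counts in NuGEN QIAGEN and 689 and 735 in NuGEN PicoPure, but 116 and 112 in Clontech QIAGEN and 78.2 and 80.9 in Clontech PicoPure, and both passed. The first 3 exons took 10.7% and 8.44% of exon counts in NuGEN against 1.43% and 0.916% in Clontech. Of 16 inner pieces 1 passed as higher in NuGEN and 6 as lower. By value 6 of the 16 were higher, with a median of -0.30 on the log2 scale. The last exon held most counts in every library, 64.8% and 63.2% in NuGEN and 73.2% and 72.2% in Clontech.

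The base composition of these pieces did not go with the kit difference in 1 direction. The GC content was 55.6% in exon 2a and 58.8% in exon 10 of Grin1. Across pieces with a known sequence, Spearman's rho between GC content and kit difference was 0.80 over 14 pieces of Grin2b, -0.70 over 9 of Grin2a, 0.01 over 16 of Grin1 and 0.30 over all 39, given as a description, since pieces of a gene share reads and libraries. The genes Grin2c, Grin2d and Grin3a had 9 tested pieces together and none passed.

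**Figure D3:**
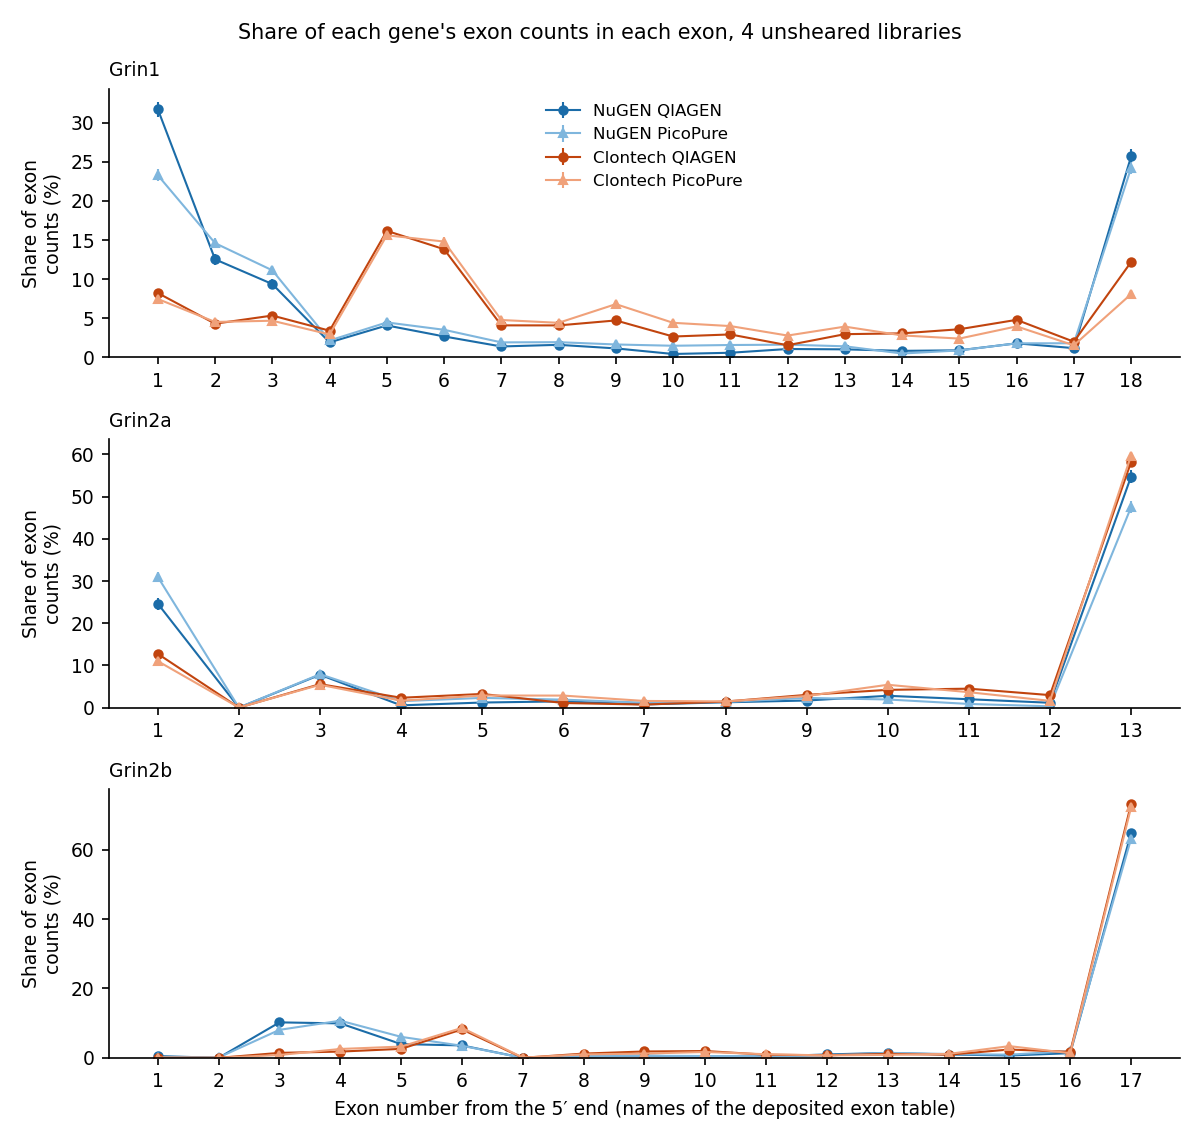
Share of each gene's exon counts (percent) in each exon, numbered from the 5′ end, for Grin1, Grin2a and Grin2b in the 4 unsheared libraries, with Wilson 95% intervals that are mostly smaller than the points. Both NuGEN libraries are high at the 5′ end of Grin1 and at its last exon, both Clontech libraries are high at exons 5 and 6, and the last exon of Grin2b holds 63.2% to 73.2% in all 4.

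**Figure D4:**
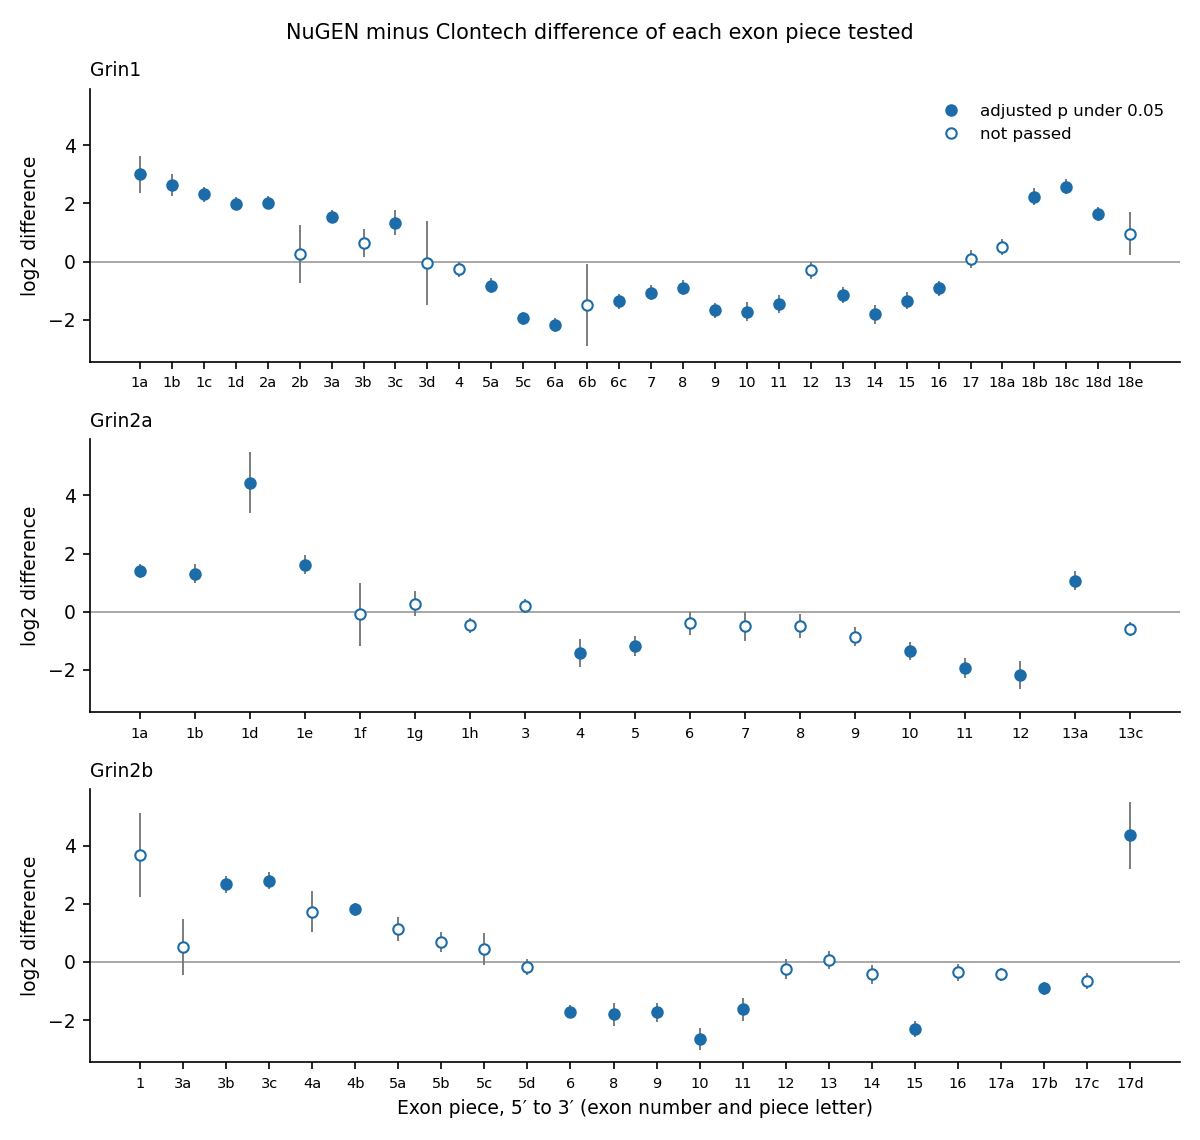
Difference between NuGEN and Clontech in log2(normalized count + 1) for each tested exon piece of Grin1, Grin2a and Grin2b in 5′ to 3′ order; bars are standard errors and filled points have an adjusted p under 0.05. Most pieces of the first 3 exons lie above 0 and most inner pieces below it, and 13 of 17 inner pieces of Grin1 passed as lower in NuGEN.

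The cassette exons of Grin1 were counted as pieces of their own. The level of N1 per base was 0.578 of the mean of its flanking exons in NuGEN QIAGEN, 0.626 in NuGEN PicoPure, 0.588 in Clontech QIAGEN and 0.257 in Clontech PicoPure, from 100, 164, 169 and 71 reads. A read counts in each piece it spans, which raises the level per base of a short piece. With a read length of 100 bases added to each piece, the ratio of N1 was 0.375, 0.405, 0.413 and 0.177 in the same order. Beside its flanks the Clontech PicoPure library was the low one either way. Against the median of inner exons the level of N1 was 2.30 and 1.81 in NuGEN and 0.568 and 0.232 in Clontech, so that on this reference both Clontech libraries were low and the order of the libraries depended on the reference. N1 lies within an intron that the annotation also lists as retained, and the intron pieces on either side had at most 5.58 normalized counts per 100 bases against 75.3 to 337 for N1. The level of C1 per base was 0.866, 1.32, 0.549 and 0.513 of that of exon 16 in the same libraries, from 106, 209, 347 and 267 reads. With the read length added the ratio of C1 was 0.768, 1.17, 0.487 and 0.455. Both NuGEN values of C1 lay above both Clontech values either way. Only exon 16 served as its neighbour, because the pieces of exon 18 could not be matched to the annotation. With counts as uneven along Grin1 as those above, these ratios are levels of a piece beside its neighbours and not shares of transcripts.

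The second comparison was that of the RNA samples. Grin2a and Grin2b were higher in PicoPure RNA, while both RNA samples gave like values of Grin1. For Grin2a the QIAGEN values of 5744 and 6216 normalized counts lay below the PicoPure values of 7798 and 9272, a difference of 0.51 on the log2 scale (SE 0.10, 1.42-fold, adjusted p = 0.0016 in limma). For Grin2b the QIAGEN values of 10996 and 16611 lay below the PicoPure values of 17550 and 21258, a difference of 0.52 (SE 0.092, 1.43-fold, adjusted p = 3.5e-04). Within kits Grin2a differed by 0.44 in NuGEN and 0.58 in Clontech, and Grin2b by 0.67 and 0.36. For Grin1 the difference was 0.04 (95% interval -0.17 to 0.24, adjusted p = 0.95), and the RNA samples overlapped. Of the 6 subunit genes tested 2 passed, both higher in PicoPure, where 1.76% of all genes passed (1.45% higher and 0.314% lower).

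Neither low GluN2 gene nor Grin3a passed. Grin3a differed by 1.16 on the log2 scale (95% interval -0.11 to 2.42) and was the higher in PicoPure in both kits. Grin2d differed by 1.01 (-0.39 to 2.42), by 0.20 in NuGEN and 1.82 in Clontech. Grin2c went opposite ways, by -0.99 in NuGEN and 0.38 in Clontech.

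**Figure D5:**
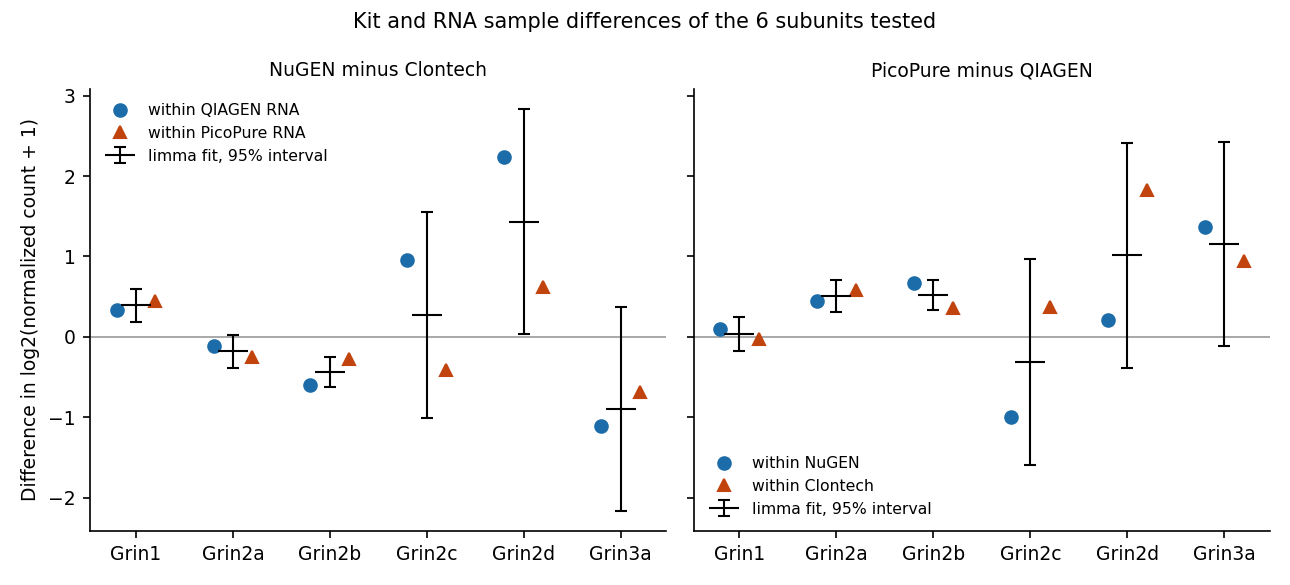
Differences in log2(normalized count + 1) of the 6 subunit genes tested, between kits (left, NuGEN minus Clontech) and between RNA samples (right, PicoPure minus QIAGEN); coloured points are the differences within 1 RNA sample or kit, and black marks the limma estimate with its 95% interval. Grin1 and Grin2b lie on opposite sides of 0 between kits, and Grin2a and Grin2b both lie above 0 between RNA samples at 0.51 and 0.52.

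The difference between RNA samples was fitted again from the exon table, where far fewer genes passed. With listed exon pieces summed, 1 of 12823 genes passed, against 230 of 13048 by gene count. The loss of a call there is thus not particular to the subunit genes. When only counts in listed exon pieces were summed, the difference of Grin2a was 0.38 (adjusted p = 0.55 in limma) and that of Grin2b 0.48 (adjusted p = 0.46), and both calls were lost, as they were with the highest exon piece, with the kit left out of the fit and with any 1 library left out. With 1 library left out and no term for kit, Grin2b differed by 0.22 without NuGEN QIAGEN and by 0.81 without Clontech QIAGEN. Exon counts per gene read went down from QIAGEN to PicoPure in both kits, from 1.04 to 0.954 in NuGEN and from 1.09 to 0.891 in Clontech for Grin2a, and from 1.17 to 1.102 and from 1.08 to 0.989 for Grin2b. Over all genes exon counts numbered 8682712 and 9285130 in NuGEN QIAGEN and PicoPure, beside 4548002 and 5194138 gene reads. In Clontech they numbered 16701803 and 15390814 beside 10176710 and 10417443 gene reads. Exon counts per gene read thus fell over the whole library in both kits, and the fall is not particular to Grin2a and Grin2b. A value under 1 means that at least some reads assigned to the gene fell in no listed exon piece.

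Piece by piece, 0 of the 84 pieces passed between RNA samples in limma (0 of all 131223), with 21 of the 84 at an unadjusted p under 0.05 and 7600 of all pieces. The difference was positive in 61 of the 84 pieces. In Grin2b all 16 inner pieces were higher in PicoPure by value, with a median of 0.74 on the log2 scale, and 1 of the 4 pieces in the first 3 exons was. In Grin2a 7 of 9 inner pieces were positive (median 0.53), and in Grin1 14 of 17 (median 0.30).

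Markers moved with this comparison. The study's extraction test took PicoPure RNA from CA1 and QIAGEN RNA from CA2 of the same sections, whereas the labels give CA2 for all libraries here. The 8 CA1 markers summed to 898 and 647 normalized counts in the QIAGEN libraries and to 1339 and 1266 in the PicoPure libraries, for NuGEN and Clontech. Of these markers 7 were tested, all 7 were higher in PicoPure by value, with a median of 0.93 on the log2 scale against -0.02 over all genes, and 0 passed. No more than 1 of the 8 was at 0 in any library. The 5 CA2 markers summed to 9509 and 9418 in QIAGEN and to 8799 and 8773 in PicoPure. Of these 2 were higher in PicoPure by value, with a median of -0.08, and 0 passed. The 7 oligodendrocyte markers summed to 6745 and 4385 in QIAGEN and to 4195 and 3004 in PicoPure, where 2 of the 7 passed as lower. By value 4 of 6 CA3 markers (median 0.44) and 0 of 7 astrocyte markers (median -0.27) were higher in PicoPure, and 0 of either list passed. Among 4 oligodendrocyte precursor markers 2 were higher by value (median 0.12), and 1 passed as higher. Higher by value were also 2 of 3 endothelial (median 1.36), 6 of 8 interneuron (median 0.18) and 2 of 4 microglial markers tested (median -0.10). So were 2 of 3 dentate granule markers tested (median 0.20), and 0 of any of these lists passed. The part of tissue composition in the differences of Grin2a and Grin2b was not tested.

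The third comparison was that of PCR cycles in the sheared libraries. Of the 6 subunit genes tested 0 passed in limma, edgeR and DESeq2, where 0.117% of the 13639 genes tested passed in limma (0.044% higher and 0.0733% lower with more cycles). The slopes of Grin2a, -0.06 on the log2 scale per cycle (SE 0.023, unadjusted p = 0.013, adjusted p = 0.80), and of Grin2b, -0.05 (SE 0.020, unadjusted p = 0.0083, adjusted p = 0.73), were the 2 at an unadjusted p under 0.05. Both genes had their lowest value at 20 cycles and their highest at 16 cycles. Grin1 had a slope of -0.02 (95% interval -0.06 to 0.01). Grin2c, Grin2d and Grin3a were each highest at 18 cycles, with slopes of 0.17 (-0.08 to 0.42), 0.01 (-0.23 to 0.25) and -0.09 (-0.35 to 0.16). The summed CA1 markers were 5674, 3519 and 3234 normalized counts at 16, 18 and 20 cycles, and the summed CA3 markers 5941, 7268 and 7588. Slopes were positive for 6 of 6 CA3 and 7 of 7 oligodendrocyte markers. They were positive for 1 of 7 CA1 and 1 of 7 astrocyte markers tested. The part of tissue composition in the slopes of Grin2a and Grin2b was not tested.

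The genes of proteins that anchor, modify or feed the receptor were taken as a list of 32: scaffolds, kinases and phosphatases, Ras regulators and the enzymes and transporters of its co-agonists. Between kits 11 of the 31 tested passed, 6 higher and 5 lower in NuGEN, where 21.3% of all genes passed (10.8% higher and 10.5% lower), with a median of 0.06 on the log2 scale against -0.03 over all genes. Of those that passed, Lin7b, a scaffold of the postsynaptic and presynaptic membrane, had the largest difference at 1.39 (adjusted p = 0.0014 in limma). Cask, a scaffold kinase, differed by -0.91 and Dlg1, which encodes SAP97, by -0.82, and both passed as lower in NuGEN. Lin7b had 416 and 272 normalized counts in NuGEN and 141 and 116 in Clontech, and the kits did not overlap.

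Between RNA samples 2 of the 31 passed, 1 in each direction, where 1.76% of all genes passed (1.45% higher and 0.314% lower). Dlg2, which encodes the scaffold PSD-93, had 4091 and 4219 normalized counts in the QIAGEN libraries and 6024 and 8235 in the PicoPure libraries, a difference of 0.76 (SE 0.11). Ppp3r1, the regulatory subunit of calcineurin, had 7237 and 11885 in QIAGEN and 5258 and 9088 in PicoPure, a difference of -0.42 (SE 0.098). The median of the list was 0.07 against -0.02 over all genes. With cycles 0 of the 30 tested passed in limma, where 0.117% of all genes did. The most abundant members were Camk2a and Camk2b, the subunits of the kinase that binds the tail of GluN2B, and Ppp3ca and Ppp3r1 of calcineurin, with Camk2a at 17870 to 26955 normalized counts in the unsheared libraries.

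The genes most like each main subunit over the 7 libraries were sought by the root mean square difference of log2(normalized count + 1), each gene centred within its table, among 7122 genes. For Grin1 they were Nol6 (0.033), Hnrnpd (0.034) and Calcoco1 (0.040), where the median gene differed by 0.323. For Grin2a they were Dscam (0.030), Zeb2 (0.038) and Zbtb38 (0.046), and for Grin2b Rasgrf2 (0.038), Usp25 (0.055) and Chd6 (0.058). Grin2a and Grin2b differed by 0.132 from each other, nearer than the median gene, whereas Grin1 differed by 0.288 from Grin2a and by 0.367 from Grin2b. These values describe 7 libraries of which 4 share both RNA samples.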

How the data were processed

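The deposited tables gave, as made by the authors, signal values that are DESeq2-normalized counts per gene for the 4 unsheared and 3 sheared libraries and per exon piece for the unsheared ones. Per the labels and the study's methods, reads were trimmed with Sickle, aligned to mm10 with STAR 2.4.1d, counted with featureCounts on GENCODE gene models and scaled with DESeq2. The methods name more than 1 GENCODE release without saying which was used for the sheared table. The strand setting and whether pairs counted once are not given in the sources used here. Every value was a whole multiple of 1 read within 0.01, which gave the reads back. The sheared table holds 26 symbols that had turned into dates, and these were left out.

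Genes that reached 10 normalized counts in 2 or more libraries were fitted with limma 3.58.1 (R 4.3.3; lmFit, eBayes with trend) on log2(normalized count + 1), so fold changes of low genes are understated. Kit and RNA sample were additive terms, and the cycle number a straight line. Mitochondrial and ribosomal RNA genes stayed out of the fits. P-values were adjusted by Benjamini and Hochberg over all genes, or over all exon pieces in the exon fit, and called under 0.05. With 1 residual degree of freedom per fit, the spread comes largely from other genes. In the cycle fit it comes wholly from the trend over all genes, so the scatter of a single gene has no weight there. P-values measure spread between single libraries, which may be technical. The fits were tested on simulated data. Alternatives used edgeR 4.0.16 and DESeq2 1.42.0 on the recovered reads.

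Lengths, exon coordinates and sequences came from GENCODE vM21 on GRCm38, the build of mm10. Exon numbers matched the annotation for Grin1, Grin2a, Grin2b, Grin2c and Grin3b, not for Grin2d and Grin3a. Intervals of reads and shares cover counting error only, since PCR copies are not independent. Those of exon shares are too narrow even for counting error, because a read that spans several pieces is counted in each. Named were all 7 members, the up to 4 partner genes that passed with the largest change and a mean of at least 100 normalized counts in each comparison, the 4 most abundant partners and the 3 genes most like Grin1, Grin2a and Grin2b, without predicted genes. Some items that this rule names are not reported here. The members, lists and this rule were chosen with earlier results of these data known. Figures were drawn with matplotlib 3.10.9.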

Additional observations from a re-analysis of the deposited data

Results flagged for a closer look

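The difference between RNA samples went opposite ways in the kits for Grin1, at 0.093 on the log2 scale (PicoPure minus QIAGEN) in NuGEN and -0.022 in Clontech, and for Grin2c, at -0.99 in NuGEN and 0.38 in Clontech. The kit difference of Grin2c (NuGEN minus Clontech) was 0.96 in QIAGEN RNA and -0.41 in PicoPure RNA. With 1 library per combination the difference between these effects was not tested, and the Grin2c values rest on 33 to 100 reads.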

How the results depend on the processing

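The kits were compared on the same RNA samples, so the fit with RNA sample as a term is the paired one, and the fit without the other term is the unpaired one. The labels give no replicate numbers. The calls of Grin1 and Grin2b between kits and of Grin2a and Grin2b between RNA samples held under other pseudocounts and filters, TMM scaling, edgeR, DESeq2 and with ribosomal RNA and mitochondrial genes included. Without the other term in the fit 0 subunits passed in either comparison, and genes called fell to 1145 between kits and 0 between RNA samples (238 at an unadjusted p under 0.05); leaving out each library in turn, again without the other term, gave 0 subunits and 563 to 1242 genes between kits and 0 and 0 between RNA samples. Between RNA samples the sum of listed exon pieces and the highest exon piece each left 1 gene and 0 subunits called. With cycles DESeq2 called 6 genes against 16.

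Directions turned for Grin2a between kits without NuGEN QIAGEN (0.04) and without Clontech PicoPure (0.11; lowest -0.47, highest 0.11 over the libraries left out), and for Grin2c between kits without NuGEN QIAGEN (-0.23 to 0.77 over the libraries left out). Between RNA samples they turned for Grin1 with the highest exon piece (-0.14), without NuGEN PicoPure (-0.19) and without Clontech QIAGEN (-0.13; -0.19 to 0.26), for Grin2c with exon pieces summed (0.090) and without NuGEN QIAGEN (0.17; -0.79 to 0.17), for Grin2d without Clontech QIAGEN (-0.11 to 2.13) and for Grin3a with the highest exon piece (-0.69). Leaving out 1 sheared library turned the cycle slopes of Grin1 (-0.047 to 0.0065), Grin2c (-0.23 to 0.57), Grin2d (-0.27 to 0.29) and Grin3a (-0.30 to 0.11). The fits with 1 unsheared library left out lacked the other term, so kit and RNA sample were not balanced in them. Within each RNA sample Grin2a was the lower in NuGEN, by -0.11 in QIAGEN and -0.25 in PicoPure. The cause of the turns was not tested.

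The mean of Grin1 over Grin2b in the sheared libraries was 7.35 with the longest transcript and 2.02 with the coding sequence. The mean of Grin2a over Grin2b in the unsheared libraries was 0.420 with the highest exon piece and, among alternatives chosen after seeing the data, 0.730 with the longest transcript and 0.450 with the coding sequence. With the highest piece of each exon the last exon of Grin1 took 18.2% in NuGEN and 6.67% in Clontech, and its first 3 exons 15.9% in Clontech. N1 against the median of inner exons had a mean of 1.23 over libraries that differed widely. Among alternatives of the exon fit, also chosen after seeing the data, a filter of 100 normalized counts gave 17252 pieces between kits and 8 between RNA samples, the other term left out gave 18837 between kits, and a pseudocount of 10 gave 2 between RNA samples. Depth limits Grin2c, Grin2d, Grin3a and Grin3b most.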
